A study of Glycine max with 6 samples.

Results

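The 200 soybean genes described here are those whose leaf signal was steady among well-watered plants and most uneven among drought-stressed plants. They were chosen from 66195 probes, each carrying 1 gene ID. For every probe the median of its array was subtracted from the deposited log2 signal, and the 46366 probes with a standard deviation (SD) under 0.3 over the 3 well-watered plants were kept. These were ranked by their SD over the 3 drought-stressed plants, and the first 200 are called members below. The SDs, and with them the plant that lies off from the others, chose the members and are therefore given as a description without a test.

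Total RNA came from the fourth trifoliate leaf of *Glycine max* cv. Williams 82, collected from greenhouse plants. Treatment began at the V6 vegetative stage, 28 days after sowing by the treatment protocol. At collection, on day 6 without water, the paper describes the plants as beginning to bloom. The drought-stressed group held plants 1, 2 and 4, from which water was withheld for 6 days until soil moisture stood at 5%, and the well-watered group held plants 14, 15 and 16, which were watered as before. All plants were of the same cultivar, each was measured on 1 Affymetrix soybean gene array, and the 3 arrays of a group came from 4 biological repeats grown. There were 3 plants to a pot, and the sources used here do not give which plants shared one. The authors had set the median of each probe to 0 before the values were deposited, so no absolute level is left in them. For that reason the leaf identity could not be checked against marker genes, and low and high expression could not be told apart. A whole leaf was extracted from each plant, so fewer cells of a type and less RNA per cell cannot be told apart either.

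Leaves that lose water close their stomata, and the hormone abscisic acid switches on a large set of protective genes while growth and photosynthesis genes are turned down. Prolonged deficit also brings remobilisation of carbon, nitrogen and metals from ageing tissue.

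The drought-stressed plants were not more variable than the well-watered plants over the whole array. The median SD per probe was 0.18 log2 units over drought-stressed plants and 0.22 over well-watered plants, and 52942 probes had an SD under 0.3 in the drought-stressed group. The same rule with the groups exchanged (steady under drought, most uneven among well-watered plants) gave 200 probes with SDs of 0.88 to 1.89 and a median of 1.00. The members had drought SDs of 0.76 to 3.85 with a median of 0.89, beside well-watered SDs of 0.0055 to 0.30 with a median of 0.19. The list of the exchanged rule thus had the higher median, while the members reached the higher maximum. An SD of at least 1 over drought-stressed plants was found in 61 members, of 155 probes on the array, and one of at least 2 in 3 members, of 10 probes. Only 1 probe on the array had a drought SD of at least 3, and it was a member. The distance between the highest and the lowest drought-stressed plant ran from 1.35 to 6.81 log2 units, with a median of 1.69, and was at least 2 units in 46 members and at least 4 units in 2.

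**Figure D1:**
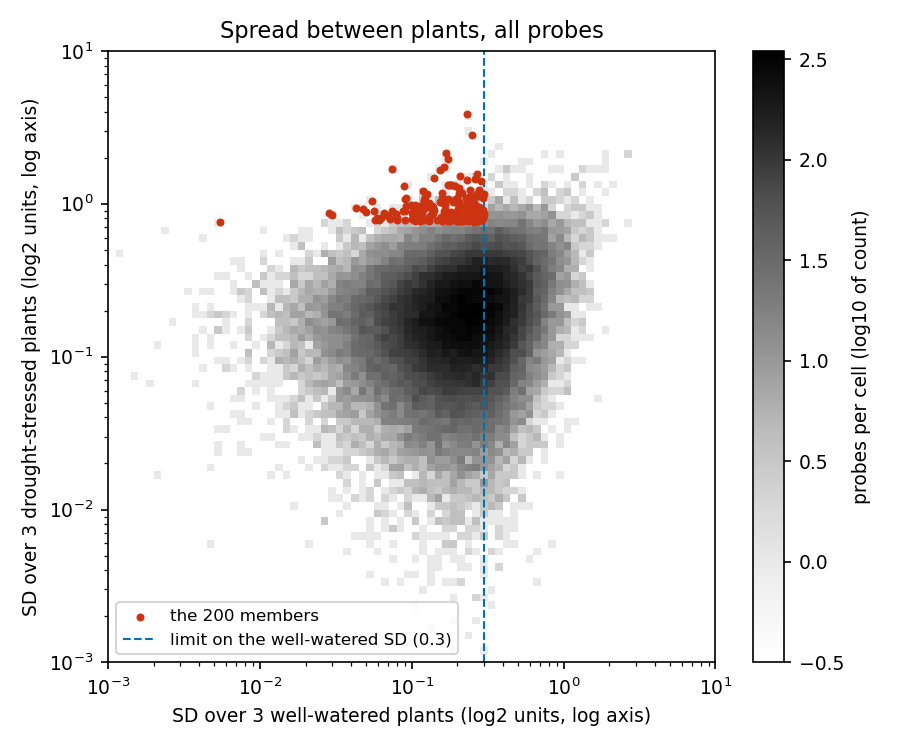
Each grey cell counts probes by their SD over 3 well-watered plants (horizontal, log2 units on a log axis) and over 3 drought-stressed plants (vertical, log2 units on a log axis), and the red points are the 200 members. The members lie left of the dashed limit of 0.3 and above a drought SD of 0.76, with 1 gene near 3.85.

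The gene at the head of the list, Glyma16g22480, read -0.21, 0.092 and 6.60 in drought-stressed plants 1, 2 and 4, against 0.31, -0.12 and -0.056 in well-watered plants 14, 15 and 16. Plant 4 alone was high, and plants 1 and 2 lay within the range of the well-watered plants or just beside it. Drought minus well-watered was 2.12 (standard error 1.47, adjusted p = 0.43, limma), a mean that none of the 3 drought-stressed plants was close to. The following gene, Glyma07g17290, had the same shape in another plant, with 0.071, 4.77 and -0.27 in drought-stressed plants 1, 2 and 4, against -0.24, -0.093 and 0.24 in well-watered plants 14, 15 and 16. Here only plant 2 was high, and its difference of 1.56 (standard error 1.08, adjusted p = 0.43, limma) was not called. Without the high plant the difference was -0.10 in Glyma16g22480 and -0.069 in Glyma07g17290. The tables used here carry no description of either gene.

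Glyma14g14380 was the member led most strongly by plant 1. It read 3.26, -0.038 and 1.02 in drought-stressed plants 1, 2 and 4, against -0.090, -0.21 and -0.22 in well-watered plants 14, 15 and 16. All drought-stressed plants were above the well-watered plants, plant 2 barely so, and the difference of 1.59 was not called (adjusted p = 0.15, limma). Without plant 2 it was 2.32 and was called (adjusted p = 0.022, limma). Glyma02g06870 was graded, with -0.021, 1.22 and 3.84 in drought-stressed plants 1, 2 and 4, against -0.10, -0.16 and -0.43 in well-watered plants 14, 15 and 16. Plant 1 was level with the well-watered plants and plant 4 was far above them. The difference of 1.91 (adjusted p = 0.14, limma) became 2.76 and called once plant 1 was left out (adjusted p = 0.020, limma). In both genes the plant left out was the one nearest the well-watered plants, picked from the tested values. The larger difference followed from that choice, and nothing is read from the gained calls.

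In Glyma06g35600 plant 4 stood at 3.10, while plants 1 and 2 were at -0.16 and 0.42 and the well-watered plants between -0.36 and -0.080. Glyma15g36200 gave 2.67 in plant 4, with -0.39 and 0.080 in plants 1 and 2 and -0.34 to -0.055 in well-watered plants. In both genes plant 4 alone was more than 1 log2 unit from every well-watered plant, and the groups overlapped.

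Other members of high spread had left the well-watered level in all 3 drought-stressed plants, by unequal distances. Glyma11g18570 read 1.17, 0.73 and 4.64 in drought-stressed plants 1, 2 and 4, against -0.86, -1.11 and -1.18 in well-watered plants 14, 15 and 16. The groups did not overlap, plant 4 was far above plants 1 and 2, and the difference of 3.23 was called (standard error 0.83, adjusted p = 0.026, limma). That call was lost without any one of the well-watered plants 14, 15 and 16, with adjusted p-values of 0.073, 0.061 and 0.067. Glyma03g06780 read 1.54, 3.47 and 0.37 in drought-stressed plants 1, 2 and 4, against -0.47, -0.69 and -1.01 in well-watered plants 14, 15 and 16. It rose by 2.52 with plant 2 leading (adjusted p = 0.021, limma), and missed the threshold without well-watered plant 14 (0.058) or 16 (0.064). Glyma06g18750 rose by 2.49 with plant 4 leading at 3.38, above 0.53 and 1.34 in plants 1 and 2 and -0.90 to -0.66 in well-watered plants (adjusted p = 0.016, limma, or 0.053 without well-watered plant 14).

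The downward member with the highest drought SD was Glyma08g21420, with -1.27, -1.74 and -4.08 in drought-stressed plants 1, 2 and 4, against 1.18, 1.24 and 1.57 in well-watered plants 14, 15 and 16. Every drought-stressed plant was below every well-watered plant, and plant 4 was lowest by more than 2 log2 units. Its level fell by 3.69 (standard error 0.59, adjusted p = 0.0022, limma). Of the 10 members with the highest drought SD, plant 4 lay off from the others in 7, plant 2 in 2 and plant 1 in 1, and upward in 9. Of these 10, 4 were called, where 9.39% of all probes were, a share that is not comparable since the same values chose the genes.

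**Figure D2:**
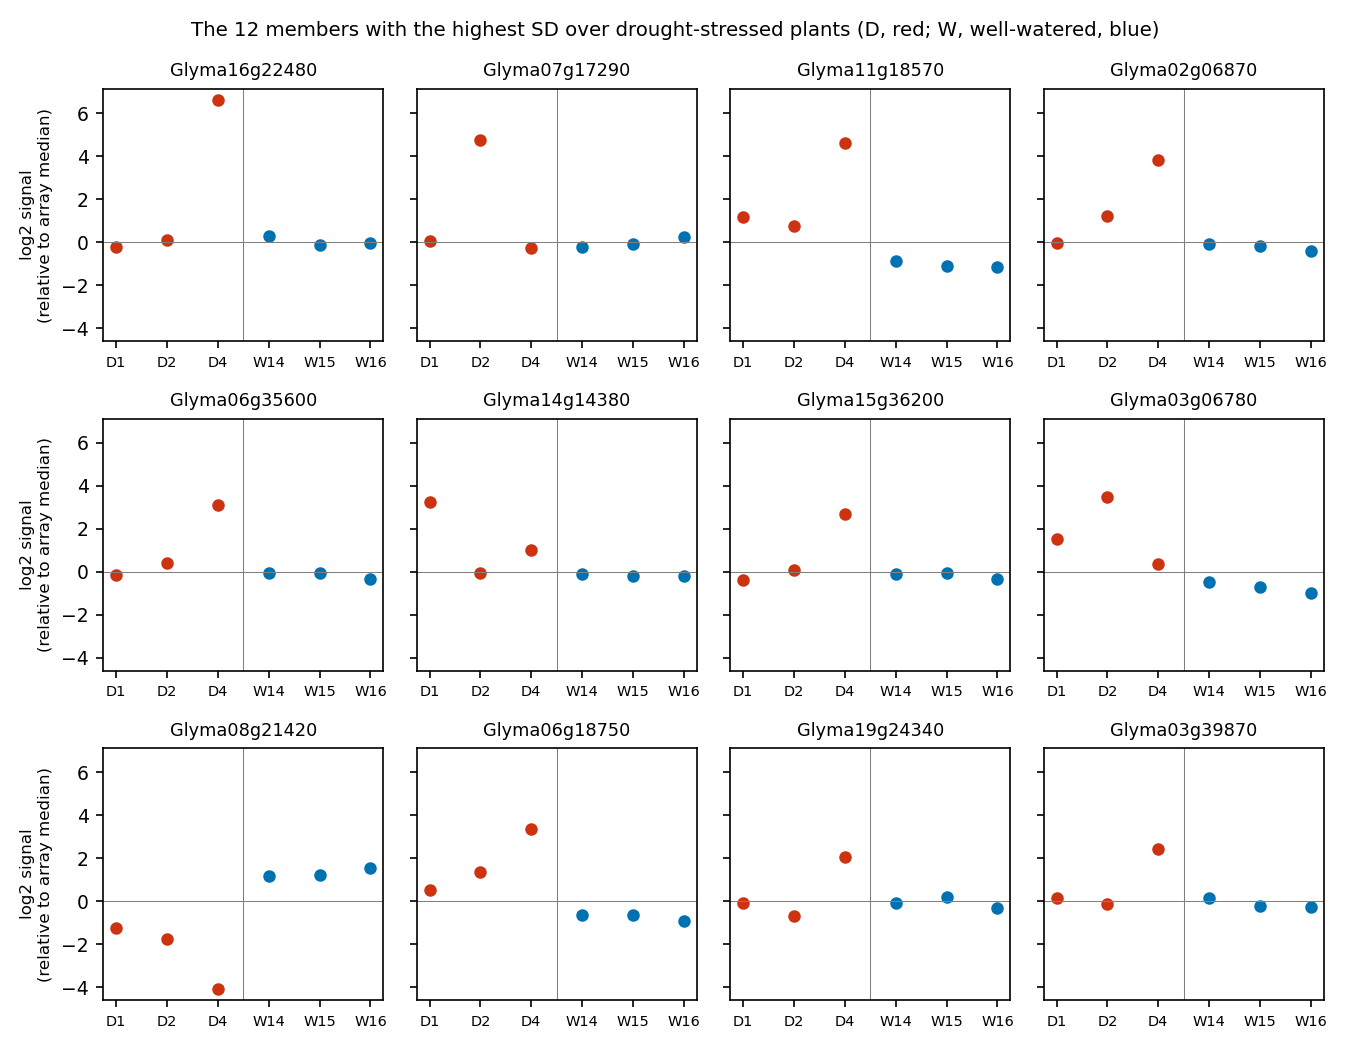
Each panel shows 1 of the 12 members with the highest drought SD, with the log2 signal relative to the array median (vertical) in drought-stressed plants 1, 2 and 4 (red, left) and well-watered plants 14, 15 and 16 (blue, right). In most panels 1 red point lies far from the other red points, up to 6.60 for plant 4 in Glyma16g22480, while the blue points stay together.

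To describe all members by the same measure, the 2 closest values among the drought-stressed plants were taken as a pair, and the remaining plant as the one standing apart, above or below the pair. Plant 4 stood apart in 90 members (45.0%), upward in 52 and downward in 38. Plant 1 stood apart in 74 members (37.0%), upward in 50 and downward in 24, and plant 2 in 36 (18.0%), upward in 15 and downward in 21. No plant was apart throughout, and plant 2 was the middle value of the drought-stressed plants in 103 members. Over the 46366 probes steady among well-watered plants, the shares were 35.3% for plant 4, 35.2% for plant 1 and 29.5% for plant 2.

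The weight of plant 4 against plant 1 depended on the scaling of the arrays. With quantile normalization, which gives all 6 arrays the same distribution, the rule picked a list with 48.0% for plant 1, 24.5% for plant 2 and 27.5% for plant 4. With the same 200 members kept, quantile-normalized values gave 42.0% for plant 1, 17.0% for plant 2 and 41.0% for plant 4. The SD over all probes of 1 array was 0.40, 0.38 and 0.46 for drought-stressed plants 1, 2 and 4, so plant 4 had the broadest distribution of its group, against 0.44, 0.44 and 0.48 for well-watered plants 14, 15 and 16. Whether the broader distribution of plant 4 is biological or technical was not tested. Plant 2 had the lowest share in each of these lists.

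Standing apart upward was the more frequent direction, in 117 members (58.5%), beside 51.3% of the 46366 steady probes. The 200 probes that followed the members in rank had the same upward share of 58.5%, with 41.0% for plant 4, 35.0% for plant 1 and 24.0% for plant 2. Among the first 100 members plant 4 stood apart in 50, and among the last 100 in 40. The gap to the pair was clear, defined as at least 2/3 of the range over the drought-stressed plants, in 140 members (70.0%), beside 63.8% of the steady probes. In the other members the 3 plants formed more of a series.

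**Figure D3:**
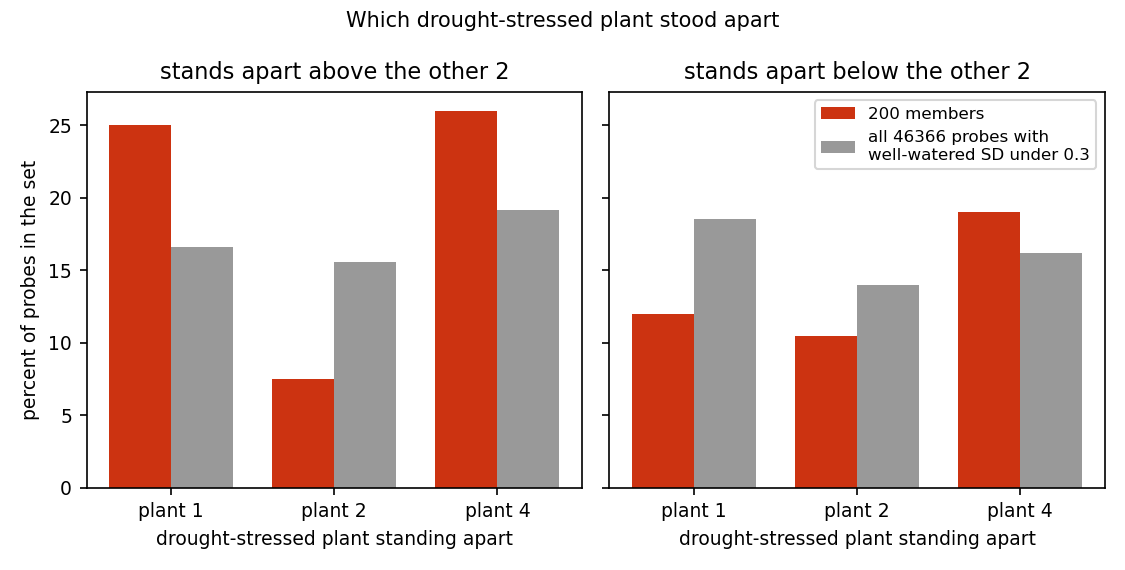
Bars give the percent of probes in which drought-stressed plant 1, 2 or 4 stood apart above (left panel) or below (right panel) the other plants, for the 200 members (red) and for the 46366 probes with a well-watered SD under 0.3 (grey). Plant 2 has the shortest red bars, with 7.5% upward and 10.5% downward, and plant 4 upward the tallest at 26.0%.

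The distance of the plant standing apart from the mean of its pair had similar medians across plants and directions. It was 1.61 log2 units for plant 4 upward and -1.41 for plant 4 downward, 1.48 and -1.46 for plant 1, and 1.40 and -1.53 for plant 2. The largest distances differed more, at 6.66 for plant 4, 4.88 for plant 2 and 2.77 for plant 1, each upward. Taken over the members, plants 1 and 4 were farthest from each other, with a median absolute difference of 1.54, beside 1.20 for plants 2 and 4 and 0.95 for plants 1 and 2. Over all probes those differences were 0.22, 0.20 and 0.20.

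The members were then placed by how far the mean of the pair and the plant standing apart lay from the mean of the well-watered plants, with 1 log2 unit as the limit of near. A near pair mean does not place each plant of the pair near. In Glyma02g06870, for example, paired plant 2 read 1.22 against a well-watered mean of -0.23. In 88 members the pair mean stayed near and the plant standing apart left the well-watered level, 63 of them above it and 25 below. This plant was 4 in 39 members, 1 in 31 and 2 in 18, an order that turned under quantile normalization, whose own list held 106 such genes with plant 1 in 52, plant 2 in 29 and plant 4 in 25. With the 200 members kept, quantile values gave 93, with plant 4 in 37, plant 1 in 35 and plant 2 in 21. In 31 members the reverse held, and the pair mean had left the well-watered level while the plant standing apart had stayed near it. The plant left behind was 1 in 18 members, 4 in 7 and 2 in 6, and the pair lay above the well-watered mean in 20 and below it in 11.

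In 51 members the pair mean and the plant standing apart were both away on the same side, a split made after the values had been seen. The plant standing apart was further from the well-watered mean than its pair in 34 of these, and that plant was 4 in 31, 21 upward and 10 downward. In the other 17 it was less far, and that plant was 1 in 12, 2 in 4 and 4 in 1. Under quantile normalization of the same members the first group numbered 32, with plant 4 in 26, whereas the list that quantile values picked for themselves held 19 such genes, with plant 4 in 9. In the remaining 30 members neither the pair mean nor the plant standing apart was 1 log2 unit from the well-watered mean, and plants 1 and 4 stood apart in 12 each.

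**Figure D4:**
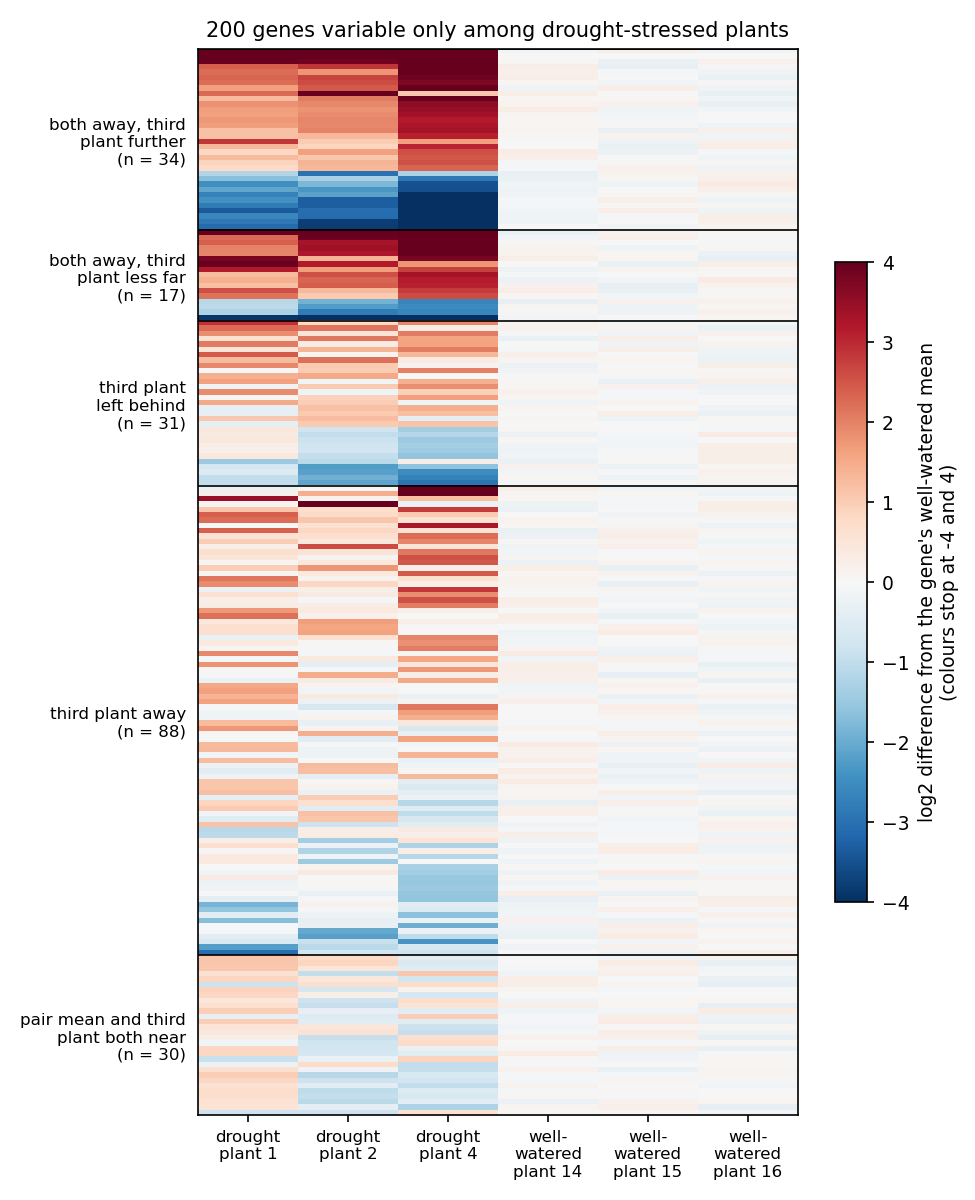
Rows are the 200 members, grouped by where the pair mean and the plant standing apart lay and sorted within groups by drought minus well-watered. Columns are drought-stressed plants 1, 2 and 4 followed by well-watered plants 14, 15 and 16. Colour gives the log2 difference from the gene's well-watered mean, and the darkest cells of the top group (34 genes) lie in the plant 4 column. The third-plant-away group (88 genes) is coloured most strongly in the plant standing apart, with weaker colour in the pair in some rows.

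The difference between the groups was tested with limma over all 66195 probes, and a probe was called at an adjusted p under 0.05 and a change of at least 2-fold. Of the members, 46 were called higher, where 4.56% of all probes were called higher, and 21 were called lower, where 4.83% of all probes were. The remaining 133 members were not called, and 9.39% of all probes were called in either direction. Without well-watered plant 14, 30 members were called higher, and the methods' t-test called 6 higher and 6 lower. The spread over drought-stressed plants that chose the members also enters this test, so nothing is read from these shares. The median standard error of a difference was 0.37 for the members and 0.18 for all probes. Drought minus well-watered ran from -4.88 to 6.50 over the members with a median of 0.48, above 0 in 134 and below 0 in 66, and had a median of -0.016 over all probes.

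All drought-stressed plants lay above all well-watered plants in 58 members (15.8% of all probes did), and all lay below them in 25 (16.3% of all probes did). In the other 117 the groups overlapped. There were 16 members whose groups did not overlap and that were not called, and 17 that differed by at least 1 log2 unit and were not called. Position is drawn from the same values as the test and so bears on nothing further. Of the 88 members with the pair mean near and the plant standing apart away, 4 were called higher and 2 lower. The 34 in which the plant standing apart had gone further were called, 23 higher and 11 lower. Of the 17 in which it was less far, 13 were called higher and 4 lower. Of the 31 with 1 plant left behind, 6 were called higher and 4 lower. None of the 30 with the pair mean and the plant standing apart both near was called, since by construction no mean difference there reaches 1 log2 unit.

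Among the called members, the drought-stressed plant farthest from the well-watered mean was plant 4 in 35 of the 46 higher members and in 17 of the 21 lower members. The members were chosen for spread among these plants, so this is a description of the values that chose them. The median difference from the well-watered mean in the higher members was 1.98 for plant 1, 1.93 for plant 2 and 3.12 for plant 4. In the lower members it was -2.09 for plant 1, -2.24 for plant 2 and -2.93 for plant 4. In called probes that were no members, plant 4 had the median farthest from 0. Over the 2973 other probes called higher, the medians were 1.50 for plant 1, 1.52 for plant 2 and 1.72 for plant 4, and plant 4 was farthest in 61.0%. Over the 3175 other probes called lower they were -1.52, -1.48 and -1.67 for plants 1, 2 and 4, and plant 4 was farthest in 50.6%. With quantile normalization plant 4 was farthest in 41.0% of the higher probes, and in 32.9% of the lower probes, where plant 1 led with 36.1%. The medians of plants 1, 2 and 4 then lay closer together, at 1.53, 1.59 and 1.63 (higher) and at -1.56, -1.55 and -1.58 (lower).

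**Figure D5:**
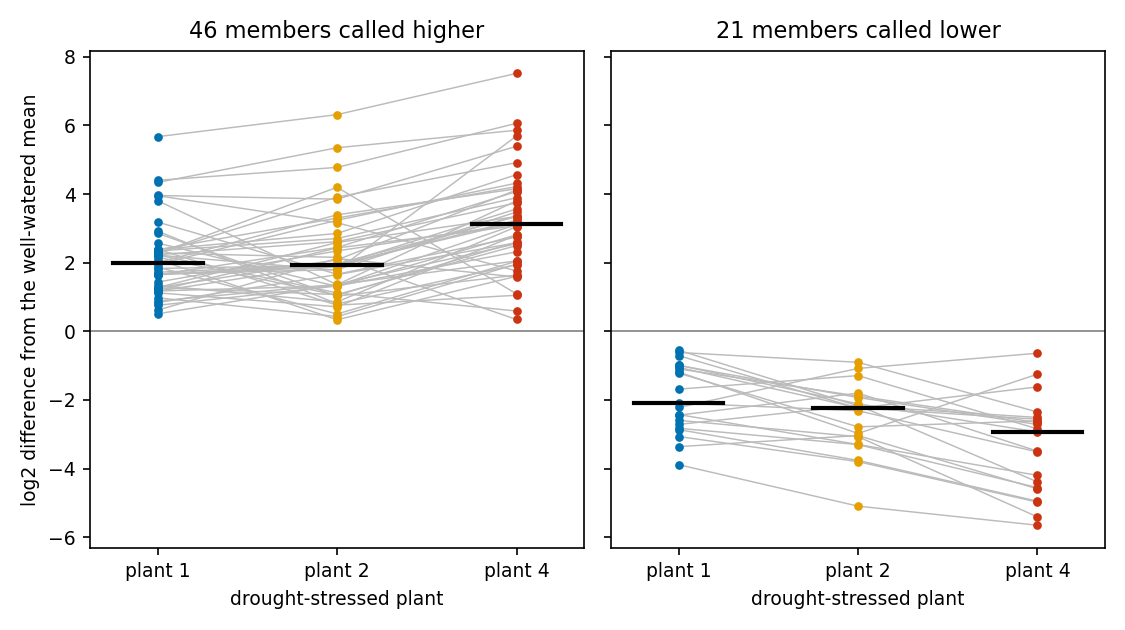
Lines join the log2 difference from the well-watered mean (vertical) in drought-stressed plants 1, 2 and 4 (horizontal) for each of the 46 members called higher (left) and the 21 called lower (right), with black bars at the medians. The median of plant 4 is the farthest from 0 in both panels, at 3.12 and -2.93.

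The members with the largest differences, picked after their values were seen, had left the well-watered level by far more than the distance between drought-stressed plants. Glyma14g22700 read 2.71, 3.35 and 4.55 in drought-stressed plants 1, 2 and 4, against -3.06, -2.73 and -3.11 in well-watered plants 14, 15 and 16. All drought-stressed plants were high and plant 4 was the highest, and the gene rose by 6.50 (standard error 0.39, adjusted p = 6.7e-06, limma). Glyma13g01570 rose by 5.18 (adjusted p = 1.0e-05, limma), with 2.07, 3.08 and 3.59 in drought-stressed plants 1, 2 and 4 and -2.53 to -2.09 in well-watered plants. In this gene it was plant 1 that stood apart, below the others but still far above every well-watered plant.

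Glyma13g29370 rose by 5.08 (adjusted p = 1.7e-05, limma), and its well-watered plants agreed within an SD of 0.028. It read 2.15, 2.53 and 3.81 in drought-stressed plants 1, 2 and 4, against -2.28, -2.25 and -2.22 in well-watered plants 14, 15 and 16. Plant 4 was the highest and no plants of the groups overlapped. Glyma17g17760 was the only member more than 16-fold lower. It read -1.93, -3.13 and -3.69 in drought-stressed plants 1, 2 and 4, against 1.86, 1.99 and 2.03 in well-watered plants 14, 15 and 16, and fell by 4.88 (adjusted p = 2.6e-05, limma). Its plant 1 had moved least and plant 4 most.

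Further members by plant and direction followed the same shapes. For plant 1 downward, Glyma13g35320 read 1.02, 2.67 and 3.67 in drought-stressed plants 1, 2 and 4, against -1.37, -1.05 and -1.32 in well-watered plants 14, 15 and 16, so plant 1 was the least raised of 3 raised plants. It rose by 3.70 (standard error 0.53, adjusted p = 0.0011, limma). Glyma16g05580 had the same order, with 0.84, 2.12 and 3.20 in drought-stressed plants and -1.36 to -0.96 in well-watered plants, and rose by 3.17 (adjusted p = 0.0015, limma). Glyma15g01300 differed from both: plant 1 was by far the lowest at -2.60, with -0.32 and -0.33 in plants 2 and 4. All drought-stressed plants were below the well-watered plants, at 0.29 to 0.65, and the difference of -1.54 was not called (adjusted p = 0.080, limma).

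For plant 1 upward, Glyma14g04260 read 2.13 in plant 1, with 0.096 and -0.063 in plants 2 and 4 and -0.36 to 0.20 in well-watered plants. Glyma18g14170 read 1.70 in plant 1, with 0.083 and -0.66 in plants 2 and 4 and -0.11 to 0.11 in well-watered plants. Neither was called, and in both the drought-stressed and well-watered plants overlapped. In Glyma18g14170 plants 1 and 4 lay on opposite sides of the well-watered plants.

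For plant 2, Glyma16g30870 was high in that plant alone, at 2.39, with -0.012 and 0.27 in plants 1 and 4 and -0.35 to -0.010 in well-watered plants. Glyma07g19320 was low in plant 2 alone, at -1.95, with 0.018 and -0.16 in plants 1 and 4 and -0.14 to 0.24 in well-watered plants. Neither was called (adjusted p = 0.22 and 0.32, limma). In Glyma11g04690 plant 2 was the one left behind, at -0.10, near the well-watered plants at -0.43 to -0.023, while plants 1 and 4 were at 2.23 and 1.12. Its difference of 1.30 was not called (adjusted p = 0.10, limma), and without plant 2 it was 1.89 and called (adjusted p = 0.0049, limma). The fit without plant 2 was picked from these values, so nothing is read from that call.

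For plant 4 downward, Glyma18g50660 read -1.62, -1.06 and -3.29 in drought-stressed plants 1, 2 and 4, against 0.95, 1.18 and 1.16 in well-watered plants 14, 15 and 16, and fell by 3.09 (adjusted p = 0.0015, limma). Every drought-stressed plant was low and plant 4 was the lowest. In Glyma16g04760, by contrast, plant 4 had moved least, with 3.01, 2.22 and 0.82 in drought-stressed plants 1, 2 and 4, against -0.92, -1.20 and -0.70 in well-watered plants 14, 15 and 16. It rose by 2.96 (standard error 0.45, adjusted p = 0.0017, limma).

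A description was at hand for only 8 of the 200 members, as for 1755 of the 66195 genes, since the descriptions used here cover mainly chromosome 1. All 8 lie on that chromosome, and their roles are those of the *Arabidopsis* proteins given as best matches. Of the metabolic enzymes, Glyma01g02330 matches PCK1, the phosphoenolpyruvate carboxykinase that turns organic acids toward sugar synthesis. It read 0.48, 1.27 and 2.65 in drought-stressed plants 1, 2 and 4, against -0.60, -0.98 and -0.50 in well-watered plants 14, 15 and 16. All drought-stressed plants were above all well-watered plants, with plant 4 the highest, and the gene rose by 2.16 (standard error 0.45, adjusted p = 0.0092, limma).

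Glyma01g04250 matches UGT74B1, a glucosyltransferase of glucosinolate synthesis in *Arabidopsis*. It read 2.95, 0.50 and 2.94 in drought-stressed plants 1, 2 and 4, against -0.63, -0.77 and -1.18 in well-watered plants 14, 15 and 16. Plants 1 and 4 were level with each other and plant 2 was far less raised, and the gene rose by 2.99 (standard error 0.56, adjusted p = 0.0055, limma). Glyma01g31300 matches the ferritin ATFER1, a plastid protein that stores iron. It read 0.73, 1.00 and 2.30 in drought-stressed plants 1, 2 and 4, against -0.86, -0.87 and -1.06 in well-watered plants 14, 15 and 16, and rose by 2.27 (standard error 0.35, adjusted p = 0.0018, limma), again with plant 4 leading.

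Glyma01g41560 has a very weak match to AT5G53110, described as close to a RING finger protein, a class that includes many ubiquitin ligases. It read 0.60, 1.92 and 2.67 in drought-stressed plants 1, 2 and 4, against -0.73, -0.66 and -0.62 in well-watered plants 14, 15 and 16, and rose by 2.40 (adjusted p = 0.0037, limma). Here plant 1 was the least raised. Glyma01g28460 matches GPT2, a carrier that exchanges glucose 6-phosphate for phosphate across the plastid envelope, and it was high in plant 4 alone. It read -0.22, -0.076 and 1.62 in drought-stressed plants 1, 2 and 4, against -0.052, 0.12 and -0.18 in well-watered plants 14, 15 and 16, and its difference of 0.48 was not called (adjusted p = 0.55, limma).

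Glyma01g37930 matches LAC11, a laccase that acts in lignin formation in *Arabidopsis* stems. It read 1.03, 0.73 and -0.43 in drought-stressed plants 1, 2 and 4, against -0.11, -0.17 and 0.079 in well-watered plants 14, 15 and 16. Plants 1 and 2 were above and plant 4 below every well-watered plant, and the difference of 0.51 was not called (adjusted p = 0.39, limma). The other described members, Glyma01g36570 and Glyma01g01970, match proteins to which the descriptions used here give no function. Glyma01g36570 was high in plant 1 (1.02) and Glyma01g01970 in plant 2 (1.39), and neither was called.

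Of 41 keyword lists of gene functions, 4 held a member, and 29 had at least 5 described genes. Over all probes 4.56% were called higher and 4.83% lower, and no list was tested against that. Among 18 described UDP-glycosyltransferases, 3 were called higher, Glyma01g04250 among them, 0 lower and 15 not, with a median difference of 0.046. Among 18 described peroxidases and oxidases, which include Glyma01g37930, 1 was called higher, 0 lower and 17 not, with a median of -0.059. The keywords for transcription factors found 176 genes (16 higher, 17 lower, 143 not called) and placed the RING finger match Glyma01g41560 among them. Those for kinases found 134 genes (7 higher, 14 lower, 113 not called) and took in the carboxykinase Glyma01g02330, which is no protein kinase. The 11 described genes of abscisic acid synthesis, breakdown and signalling, 6 called higher and 2 lower, held no member. Descriptions of hormone-related genes came partly from the authors' own set, chosen for a significant change of at least 2-fold in drought-stressed V6 leaves. Nothing is therefore read from the counts of this list. By keyword, none of the 8 lists of markers of other organs and cell types held a member, although only 2 of those lists had 5 or more described genes. The keywords also miss genes. Glyma01g37930, matched to a laccase of lignin formation, was not found by the list for xylem and lignin. Glyma01g28460, matched to a sugar phosphate carrier, was not found by the list for sugar transport. An empty list thus does not show that no member belongs to it.

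Position on the chromosomes was not used by the rule. Within 10 loci of each other, in the order of gene IDs, lay 9 pairs of members that comprised 16 genes. The list of the exchanged rule held 6 such pairs and the next 200 probes held 4, and quantile normalization left 5 pairs in its own list. In 3 of the 9 pairs both genes had the same plant standing apart in the same direction. Glyma08g06080 and Glyma08g06090, adjacent on chromosome 8, were both high in plant 4 alone, at 2.05 and 1.35, with -0.34 to 0.056 in plants 1 and 2 and -0.22 to 0.20 in well-watered plants. Neither was called, and whether probes of adjacent genes share sequence was not tested.

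Glyma14g22690, beside Glyma14g22700 on chromosome 14, also moved with its neighbour. It read 0.99, 1.46 and 3.18 in drought-stressed plants 1, 2 and 4, against -1.12, -1.71 and -1.34 in well-watered plants 14, 15 and 16, and rose by 3.27 (adjusted p = 0.0012, limma). On chromosome 9, Glyma09g04530 rose by 2.30 (adjusted p = 0.0022, limma) with plant 1 the least raised at 0.60, below 1.51 and 2.30 in plants 2 and 4 and above -1.07 to -0.50 in well-watered plants. Its neighbour Glyma09g04520 read -0.53 in plant 1, below 0.84 and 1.00 in plants 2 and 4, with -0.48 to 0.049 in well-watered plants, and was not called.

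The other pairs differed in the plant standing apart or its direction, which does not mean that none of them moved together. Glyma18g09740 and Glyma18g09750, adjacent on chromosome 18 and picked after their values were seen, had the same order of plants. They read 0.996, 1.91 and 0.053, and 0.51, 1.41 and -0.14, in drought-stressed plants 1, 2 and 4. Plant 4 stood apart downward in Glyma18g09740 and plant 2 upward in Glyma18g09750, and neither was called. Neighbours of other pairs moved differently. Glyma08g22500 was lower in drought-stressed plants 1, 2 and 4, at -0.44, -1.62 and -1.95, against 0.42 to 0.74 in well-watered plants, and fell by 1.95 (adjusted p = 0.0034, limma). Glyma08g22540, 4 loci away, was higher in the same plants, at 0.71, 0.94 and 2.42, against -1.06 to -0.84 in well-watered plants, and rose by 2.30 (adjusted p = 0.0027, limma). In the run of Glyma12g34550, Glyma12g34560 and Glyma12g34570 plant 4 was the lowest drought-stressed plant each time, at -0.52, -1.18 and -1.78. The other plants differed between these genes, and none was called, although Glyma12g34550 was called without plant 4, at a difference of 1.15 (adjusted p = 0.0046, limma). That fit too was picked from the values, so nothing is read from its call.

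The probes beside the members that were no members themselves were looked at in the same way. Of 380 such probes 1 locus away, 90 (23.7%) had the same plant standing apart in the same direction as the member, where on average 17.1% of all probes had that plant and direction. At 2, 3, 4 and 5 loci it was 22.8%, 19.5%, 21.2% and 17.4%. The members were spread over all chromosomes, from 5 on chromosome 3 to 17 on chromosome 8, and 6 of them (3.0%) came from unanchored scaffolds, which hold 428 probes (0.65%). None of the members shared its 6 values with another probe, and none had a second probe for its gene ID.

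At the edge of the list, the last members were Glyma06g30340, Glyma0079s00270 and Glyma15g06010, with drought SDs of 0.766, 0.764 and 0.761. The first probes left out were Glyma07g14470, Glyma09g18560 and Glyma11g17850, with 0.760, 0.759 and 0.759. The limit thus cuts through a continuous range, and Glyma0079s00270 shows how wide the list is. That gene had a well-watered SD of 0.0055, with 0.75, 0.17 and -0.76 in drought-stressed plants 1, 2 and 4, against -0.078, -0.083 and -0.072 in well-watered plants 14, 15 and 16. Its plants 1 and 4 lay on opposite sides of the well-watered level, and the difference of 0.13 was not called (adjusted p = 0.87, limma).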

How the data were processed

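The deposited log2 signals were made by the authors, who used RMA (Affymetrix Expression Console, with normalization off) to summarise probes to genes, shifted each array to its 75th percentile and set each probe's median to 0. The columns of the authors' own comparison (fold changes and p-values) were not used, and only its gene names were taken. Each array's median was subtracted here. The group difference was fitted for all 66195 probes in limma (3.58.1, lmFit with eBayes; R 4.3.3) and adjusted by Benjamini-Hochberg. Scripts were tested on simulated data. Precision is limited by 3 arrays per group, and the plants are assumed independent. The limma p-values combine a probe's own spread between these plants (4 degrees of freedom) with a prior from all probes (5.24 degrees of freedom). For a probe of high spread this gives a smaller standard error than its own plants alone would. An exact permutation test of 3 against 3 plants cannot give a p under 0.1. The members, keyword lists and tests were chosen with earlier results of these data known. Named genes are the 10 members with the highest drought SD, the 3 highest for each plant and direction, those in keyword lists, those at the edge and groups of neighbours, and others are named as chosen later or described. Of the gene IDs, 0 matched the RefSeq table, so no sequence, promoter or protein was used. Alternatives were no array centring, quantile normalization, other SD limits and list sizes, the range, the methods' t-test, a robust prior, array weights, no fold minimum and leaving out each plant.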

Additional observations from a re-analysis of the deposited data

How the results depend on the processing

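The list itself changed with its limits. A limit of 0.2 on the well-watered SD kept 106 of the 200 genes, which by construction are the members already under 0.2. A limit of 0.4 kept 149. With 1 plant left out the list kept 86 to 145, with 86 without drought-stressed plant 4, 102 without drought-stressed plant 1 and 122 without well-watered plant 16. Quantile normalization changed the shares of plants 1, 2 and 4 standing apart to 48.0%, 24.5% and 27.5%, and left 5 pairs of neighbours. It changed the share of other called probes in which plants 1, 2 and 4 were farthest from the well-watered mean to 27.1%, 31.9% and 41.0% (higher) and to 36.1%, 31.0% and 32.9% (lower). Values without array centring gave 19.0% for plant 2 and 53.2% for plant 4 among the lower probes. The methods' t-test called 6 members higher and 6 lower, of 1682 and 1633 probes, and no fold minimum called 5661 and 5388 probes. With 1 plant left out, 30 to 50 members were called higher (30 without well-watered plant 14) and 17 to 27 lower, and 2768 to 3286 and 2908 to 3334 of all probes. Of the 67 called members, 46 were called the same way in all 6 such fits. The causes were not tested. For named genes, 320 differences were refitted, of which 8 lost and 4 gained a call and 8 changed sign, all 8 in genes that were not called. With 1 plant left out, the difference ran from -0.10 to 3.30 in Glyma16g22480, -0.27 to 0.57 in Glyma08g06090, -0.79 to 0.099 in Glyma12g34560 and -0.11 to 0.81 in Glyma01g28460, each changing sign without plant 4. It ran from -0.069 to 2.45 in Glyma07g17290, changing sign without plant 2, and from -0.26 to 0.92 in Glyma18g14170, -0.22 to 0.54 in Glyma0079s00270 and -0.22 to 0.62 in Glyma01g36570, changing sign without plant 1. Together with the sign changes, 40 differences in 23 genes moved by over 1.5 times, 39 of them when a drought-stressed plant was left out. No paired analysis was possible because the groups share no plant numbers. A filter on low values and a trend in the prior were not possible without absolute levels, and the planned search for promoter motifs was not run. Signal over background is not in the values, so only the standard errors show what 3 arrays can resolve.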
